A study of Homo sapiens with 4 samples.

Results

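The p53 pathway targets described here are 33 genes that the tumour suppressor p53 is known to switch on, or that belong to its closest feedback circuit. They were chosen by name. Gene expression was measured on 4 Affymetrix PrimeView arrays of Kelly cells, a MYCN-amplified neuroblastoma cell line, in a derivative resistant to the ALK kinase inhibitor TAE684 that was grown in 1 µM of the drug. Virus carrying a short hairpin against BORIS (shBORIS, 2 arrays) or against luciferase (shLUC, the control, 2 arrays) was applied for 24 h and puromycin selection followed for 48 h, so that all 4 samples share the drug, the virus and the selection. The labels name 1 hairpin against BORIS and a single cell line, and call each pair of arrays biological duplicates. BORIS is the product of CTCFL, a germ-line paralog of the genome-folding factor CTCF. A probe set that named a single gene was found for 31 of the 33 members, out of 18244 genes on the array, and 26 of the 31 lay above the filter on dim genes, at an intensity of 61.4. BTG2, an antiproliferative gene, and FDXR, a mitochondrial electron carrier, were not analysed here.

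p53 is a transcription factor that is kept scarce by the ubiquitin ligase MDM2 and is stabilised when DNA is damaged or when ribosome production is disturbed. It binds an element made of a pair of similar decamers and turns on genes that halt the cell cycle, that start apoptosis, that repair DNA and that adjust metabolism, and it turns on MDM2, which closes a negative feedback loop. In neuroblastoma MDM2 is also known as a target of MYCN. Many of these genes also answer to other stress factors.

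Promoter windows from RefSeq (GRCh38.p14), from 250 bases before to 50 bases after the start of transcription, were found for 28 of the 33 members. GADD45A, TNFRSF10B, TP53INP1, RRM2B and PHLDA3 had no window, so these genes were not searched for any motif. A match to the p53 response element, allowing at most 2 mismatches over its 20 letters, a spacer of at most 1 base and no mismatch in the C and G at the centre of each decamer, was found in 3 of the 28 (10.7%), against 187 of all 35116 windows (0.533%). The element reads alike on both strands. The 3 genes were MDM2, AEN and DDB2, and their sequences are shown because they let the members with a p53 element close to the start be set beside the values that follow. Each is printed 5′ to 3′ on the plus strand, up to the start of transcription or the end of the element, with the element in capitals. The windows are chr12:68808774-68809023 for MDM2, chr15:88621090-88621339 for AEN and chr11:47214724-47214999 for DDB2.
MDM2: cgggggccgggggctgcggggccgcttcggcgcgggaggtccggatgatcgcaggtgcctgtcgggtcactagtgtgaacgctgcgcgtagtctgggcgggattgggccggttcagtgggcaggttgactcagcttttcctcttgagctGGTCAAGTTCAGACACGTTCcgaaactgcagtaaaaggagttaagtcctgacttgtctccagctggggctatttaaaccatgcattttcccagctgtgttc
AEN: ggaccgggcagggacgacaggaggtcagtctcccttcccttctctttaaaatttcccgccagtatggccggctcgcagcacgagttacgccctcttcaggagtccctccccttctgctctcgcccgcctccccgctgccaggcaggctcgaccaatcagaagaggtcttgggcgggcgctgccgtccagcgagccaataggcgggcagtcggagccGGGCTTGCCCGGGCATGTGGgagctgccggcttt
DDB2: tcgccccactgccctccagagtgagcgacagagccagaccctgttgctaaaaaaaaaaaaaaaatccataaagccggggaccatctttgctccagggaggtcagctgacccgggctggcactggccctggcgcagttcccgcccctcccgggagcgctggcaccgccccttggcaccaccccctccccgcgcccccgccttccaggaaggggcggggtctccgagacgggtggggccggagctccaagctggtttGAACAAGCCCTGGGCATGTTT
Only the best match of each window is marked, and stretches with a mismatch at a core C or G were not counted. In MDM2 the element lies at bases -101 to -82 from the start, with 2 mismatches. In AEN it lies at -34 to -15, also with 2 mismatches. In DDB2 it lies at 6 to 26, within the transcribed part, with 0 mismatches and a spacer of 1 base. Other motifs were searched on both strands in the same windows. The E-box CACGTG, which MYC proteins bind, was found in 5 of the 28 member windows (17.9%) and in 7.26% of all windows. The ATF4 element TGATGNAA was found in 2 (7.14%), those of GADD45G and PLK3, and in 3.62% of all windows. Neither motif overlapped a p53 element. A match describes the letters only, and elements outside these windows were not searched.

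The hairpin's target was low in both shBORIS samples. CTCFL had an intensity of 701 and 737 with shBORIS against 3563 and 3376 with shLUC, a log2 difference of -2.25 as deposited (SE 0.11) and -2.72 against the median gene (SE 0.05; adjusted p = 9.31e-10). Most genes were brighter with shBORIS on the deposited scale, with a median log2 difference of 0.48 over the 10946 genes tested, so each member is given on that scale and relative to the median gene. No label says how the arrays were brought to a common scale. The labels give 100 ng of labelled RNA for every array, so brightness does not directly read the number of cells or the RNA per cell. In bulk samples a change in the number of cells and a change in RNA per cell cannot be told apart. The ERCC spike-in probe sets had a median of 25.5 and 25.8 in the shBORIS samples and of 24.8 and 24.4 in the shLUC samples. Sympathoadrenal markers were present, with 11 of the 11 that were matched above the filter, among them MYCN at an intensity of 5727 and 6041 with shBORIS and 5347 and 5280 with shLUC. Their summed intensity was 26594 and 27521 with shBORIS and 19889 and 18786 with shLUC. Of the 11, 4 were higher and 6 lower relative to the median gene, and 7 higher and 0 lower as deposited. The secretory granule protein CHGA read 6272 and 6239 against 2292 and 1974, and the transcription factor PHOX2A 1072 and 1177 against 1281 and 1249. Of 5 Schwann cell and glial markers matched, 1 was above the filter, and of 7 fibroblast and 6 endothelial and immune markers, 2 each. Summed intensity ran from 223 to 244 with shBORIS and from 223 to 247 with shLUC for the glial markers, from 873 to 963 and from 1067 to 1114 for the fibroblast markers, and from 281 to 283 and from 248 to 280 for the endothelial and immune markers. The fibroblast sum was thus lower with shBORIS. Of the 2 tested, COL1A1 read 451 and 515 against 729 and 779, and PDGFRB, higher as deposited, 265 and 287 against 205 and 198, while DCN and COL3A1, named after their values were seen, were near the level of the spike-ins at means of 26.3 and 27.9 with shBORIS. The part of other cell types in the results was not tested.

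Relative to the median gene, more of the p53 pathway members above the filter were lower than higher in shBORIS cells, and the largest difference was the fall of GADD45A. Of 26 members tested, 4 rose and 11 fell, or 15.4% and 42.3%, against 30.2% and 28.9% of all 10946 genes tested. Their median log2 difference was -0.10, against 0.00 for all genes. With no filter on dim genes the balance turned, to 8 members higher and 7 lower of 31, against 4739 genes higher and 5083 lower of 18244. In that fit the reference itself moved, to the median of all 18244 genes. Each of the 26 members thus shifted up by the same amount, such as MDM4 from -0.23 to -0.12 and GADD45A from -1.05 to -0.94. As deposited, 17 members were higher and 2 lower, or 65.4% and 7.69%, against 77.2% and 4.6% of all genes, with a median of 0.37 against 0.48. The members differed by -1.05 to 0.35 relative to the median gene, and 1 of the 26, GADD45A, by more than 2-fold. Of all 10946 genes tested, 39 were called higher and 181 lower by at least 2-fold on that scale. The 4 relative rises, MDM2, ZMAT3, TRIAP1 and DDB2, were also higher as deposited. Of the 11 relative falls, GADD45A and SESN1 were lower as deposited, MDM4 and CDKN1A were higher, and the other 7 did not pass. The remaining 11 members were all higher as deposited and did not pass relative to the median gene. Quantile normalization, which gives all arrays one distribution, gave 13 of the 26 members the other sign than as deposited, CDKN1A and MDM4 among them, and left GADD45A and SESN1 lower. Scaling by the median of the ERCC spike-ins left the deposited call of 25 of the 26 as it was. Those medians, from 24.4 to 25.8, were nearly equal on the 4 arrays and lay far under the filter at 61.4. This scaling could therefore hardly change a call, and it does not decide between the scales.

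**Figure D1:**
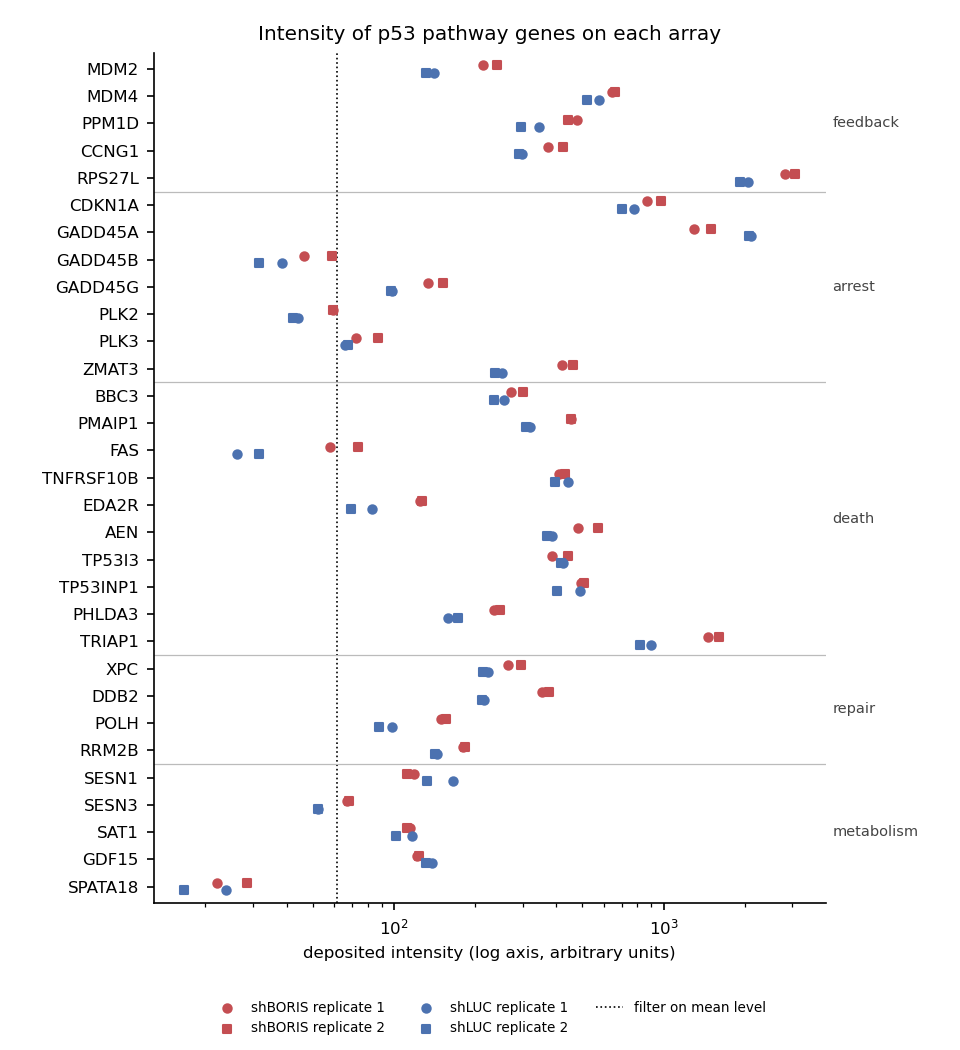
Deposited intensity (log axis) of each matched p53 pathway gene on the 4 arrays, with shBORIS in red and shLUC in blue, circles for replicate 1, squares for replicate 2 and a dotted line at the filter's 61.4. GADD45A and SESN1 have both shBORIS points to the left of both shLUC points, while most other genes have them to the right.

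**Figure D2:**
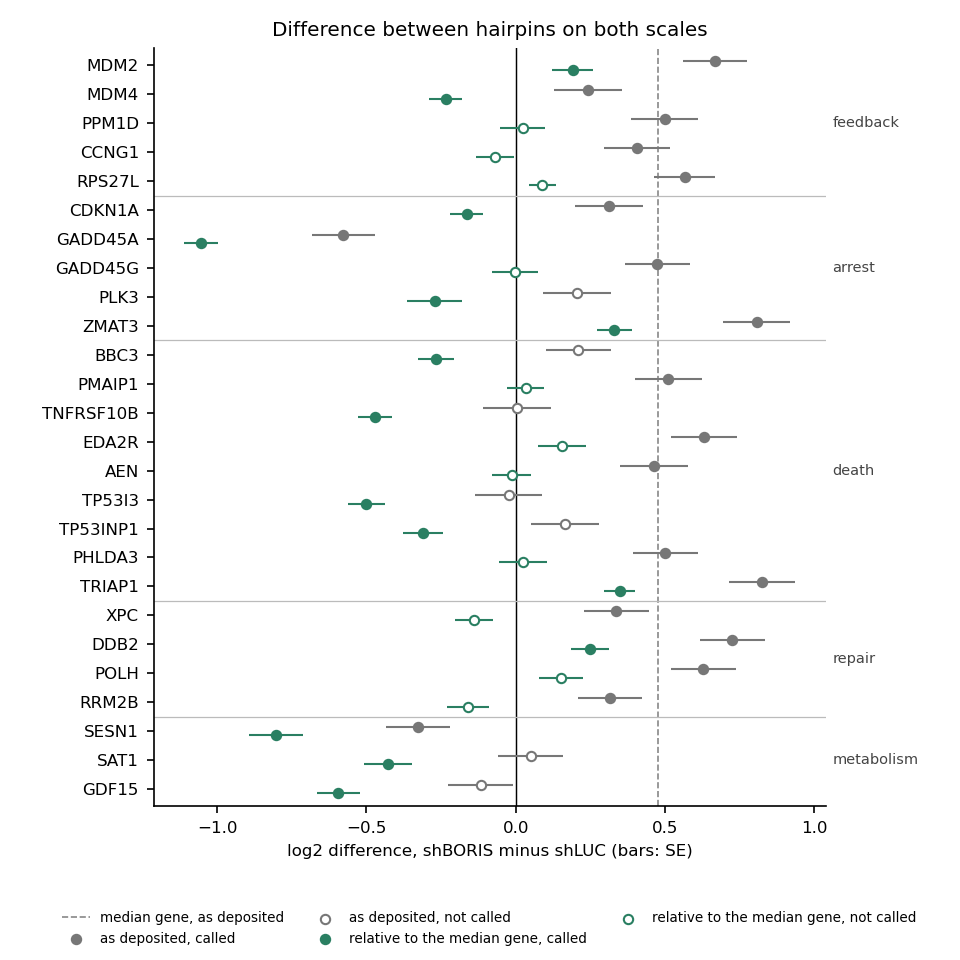
Log2 difference of shBORIS minus shLUC for the 26 members tested, as deposited (grey) and relative to the median gene (green), with bars of 1 SE and filled points where the limma adjusted p passed. The relative values run from -1.05 for GADD45A to 0.35 for TRIAP1, and the dashed line marks the median gene as deposited, at 0.48.

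Among the feedback regulators, MDM2 and its relative MDM4 went opposite ways once the median gene was taken as reference. MDM2, the ligase that marks p53 for destruction, had intensities of 213 and 240 with shBORIS and 141 and 132 with shLUC. The groups did not overlap, and the log2 difference was 0.67 as deposited (SE 0.11; adjusted p = 1.69e-09) and 0.19 relative to the median gene (SE 0.07; adjusted p = 0.0327). The relative rise had the largest p of the 4. The call was lost without shBORIS replicate 2 (adjusted p = 0.179), without shLUC replicate 1 (adjusted p = 0.0876) or without shLUC replicate 2 (adjusted p = 0.0635), and it read -0.04 as the mean of the gene's 11 probe sets. Of the 6 MDM2 probe sets above the filter, 6 were higher as deposited. Among all 49293 cellular probe sets, dim ones included, 51.8% were higher and 3.22% lower. Among the genes above the filter 77.2% were higher and 4.6% lower. Relative to the median gene 2 of the 6 rose, and values ran from -0.15 to 0.22. MDM4, which binds p53 and masks its activation domain, had intensities of 641 and 659 with shBORIS and 574 and 520 with shLUC. It was 0.24 higher as deposited (adjusted p = 0.0408) and fell by 0.23 on the relative scale (SE 0.05; adjusted p = 0.00444), a call lost with no filter on dim genes, at -0.12 (adjusted p = 0.0962). All 5 MDM4 probe sets above the filter were lower on the relative scale, from -0.23 to -0.68, and 1 of the 5 was higher as deposited. The deposited call of MDM4 was lost without shBORIS replicate 1 (adjusted p = 0.0985), without shBORIS replicate 2 (adjusted p = 0.173) and without shLUC replicate 2 (adjusted p = 0.262).

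The other 3 feedback genes did not pass relative to the median gene. PPM1D, the phosphatase that removes activating marks from p53 and its kinases, read 476 and 442 with shBORIS and 344 and 297 with shLUC, a relative difference of 0.02 (SE 0.08; adjusted p = 0.808). CCNG1, a cyclin that brings a phosphatase to MDM2, read 373 and 423 against 299 and 292, a relative difference of -0.07 (adjusted p = 0.365). Of the 5 CCNG1 probe sets, all above the filter, 1 that was not the brightest rose by 0.18 on that scale (adjusted p = 0.0304). RPS27L, a ribosomal protein paralog that binds MDM2, read 2828 and 3072 against 2059 and 1915, a relative difference of 0.09 (adjusted p = 0.12); a gene with near-identical relatives, it is uncertain on such an array. As deposited these 3 genes were higher by 0.50, 0.41 and 0.57.

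Of the genes of cell cycle arrest, GADD45A showed the largest difference of all members. GADD45A, which binds the replication clamp PCNA and the mitotic kinase CDK1 and acts in the arrest after DNA damage, had intensities of 1297 and 1503 with shBORIS and 2118 and 2066 with shLUC. Both shBORIS values were below both shLUC values although most genes were brighter there. The log2 difference was -0.58 as deposited (SE 0.11; adjusted p = 1.66e-07) and -1.05 relative to the median gene (SE 0.06; adjusted p = 7.06e-07), a 2.08-fold relative fall. It rests on 1 probe set, and it stayed between -0.94 and -1.12 relative to the median gene, and called, under all 13 alternative settings and left-out arrays. Of its family members, which were not tested against it, GADD45G read 134 and 152 against 98.6 and 97.5, a relative difference of -0.00 (SE 0.08; adjusted p = 0.984). GADD45B lay under the filter, at 46.4 and 59.2 against 38.4 and 31.7.

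CDKN1A, which encodes the CDK inhibitor p21 and is the main effector of arrest by p53, differed in direction between the scales. Its intensities were 866 and 978 with shBORIS and 778 and 698 with shLUC. It was 0.31 higher as deposited (SE 0.11; adjusted p = 0.0077) and 0.16 lower on the relative scale (adjusted p = 0.0273). The relative call was lost without shBORIS replicate 1 (adjusted p = 0.195) and without shLUC replicate 1 (adjusted p = 0.0964), and the deposited call without shBORIS replicate 2 (adjusted p = 0.154) and without shLUC replicate 2 (adjusted p = 0.126). PLK3, a stress-responsive polo-like kinase close to the filter, read 72.2 and 87.1 against 65.7 and 67.8. It fell by 0.27 on the relative scale (adjusted p = 0.0283), read 0.21 as deposited without passing (adjusted p = 0.0825), and lost the relative call without shBORIS replicate 1 (adjusted p = 0.135) and without shLUC replicate 2 (adjusted p = 0.177). PLK2, a kinase of centriole duplication, lay under the filter at 59.3 and 59.4 against 44.1 and 42.2. Its 4 probe sets, all under the filter, differed in sign as deposited. The brightest read 0.35 and the others -0.25, -0.27 and -0.29. Relative to the median gene 3 of the 4 were called lower, as were 46.1% of all cellular probe sets, so no direction is given for PLK2.

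ZMAT3, an RNA-binding protein that regulates splicing downstream of p53, rose on both scales. Its intensities were 421 and 460 with shBORIS and 251 and 238 with shLUC, with no overlap. The log2 difference was 0.81 as deposited (adjusted p = 2.28e-12) and 0.33 relative to the median gene (SE 0.06; adjusted p = 8.77e-04). The relative rise passed under all 13 alternatives, from 0.23 to 0.45, although its other probe set read 0.04 (adjusted p = 0.719).

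Among the 9 death genes tested, 1 was called higher and 4 lower on the relative scale, and as deposited 5 were higher and 0 lower. Of all genes tested 30.2% were higher and 28.9% lower on the relative scale, and 77.2% and 4.6% as deposited. The falls were those of a death receptor, a BH3-only protein and a pair of genes linked to oxidative stress and autophagy. TNFRSF10B, which encodes the TRAIL receptor DR5, had intensities of 410 and 431 with shBORIS and 442 and 397 with shLUC. These overlapped, the deposited difference was 0.00 (adjusted p = 0.971), and relative to the median gene it fell by 0.47 (SE 0.06; adjusted p = 7.39e-05). TP53I3, a quinone oxidoreductase that raises reactive oxygen, read 385 and 441 against 423 and 415. Its deposited difference was -0.02 (adjusted p = 0.852) and its relative one -0.50 (SE 0.06; adjusted p = 9.6e-05). TP53INP1, which acts in apoptosis and autophagy, read 494 and 507 against 490 and 402. It read 0.17 on the deposited scale (adjusted p = 0.163) and fell by 0.31 on the relative scale (SE 0.07; adjusted p = 0.00297). These 3 relative falls passed under all 13 alternatives; the deposited intensities of TNFRSF10B and TP53I3 overlapped between the groups.

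BBC3, which encodes the BH3-only protein PUMA, had intensities of 272 and 301 with shBORIS and 255 and 236 with shLUC. It read 0.21 on the deposited scale (adjusted p = 0.0668) and fell by 0.27 on the relative scale (SE 0.06; adjusted p = 0.00376). The relative call was lost with no filter on dim genes, at -0.15 (adjusted p = 0.0629). Its second probe set, also above the filter, read -0.71 relative to the median gene and -0.23 as deposited (adjusted p = 0.0602). PMAIP1, which encodes the other BH3-only target NOXA, did not pass on the relative scale. It read 454 and 453 against 319 and 308, with a relative difference of 0.03 (SE 0.06; adjusted p = 0.661) and a deposited one of 0.51 (adjusted p = 1.09e-05).

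TRIAP1, a small mitochondrial protein that inhibits apoptosis, had the largest relative rise of the members above the filter. Its intensities were 1456 and 1611 with shBORIS and 902 and 815 with shLUC. The groups lay well apart, with a log2 difference of 0.82 as deposited (adjusted p = 6.82e-13) and 0.35 relative to the median gene (SE 0.05; adjusted p = 2.53e-04), which passed under all 13 alternatives from 0.28 to 0.46. It rests on 1 probe set.

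The other death genes did not pass relative to the median gene or were dim. EDA2R, a TNF receptor family member for ectodysplasin, read 125 and 127 against 82.7 and 69.2, a relative difference of 0.15 (adjusted p = 0.126). AEN, a nuclease of apoptotic cells with a p53 element just before its start, read 483 and 573 against 387 and 368, a relative difference of -0.01 (adjusted p = 0.87). PHLDA3, which blocks AKT at the membrane, read 235 and 246 against 159 and 172, a relative difference of 0.03 (adjusted p = 0.805). As deposited these 3 were higher by 0.63, 0.46 and 0.50. FAS, the receptor of FAS ligand, lay under the filter at 57.7 and 73.8 with shBORIS and 26.1 and 31.6 with shLUC. Its ratio of means was 2.28, but the shLUC values were close to the spike-in medians, so the size is approximate. With no filter it read 0.86 as deposited (adjusted p = 4.25e-13) and 0.50 relative to the median of all 18244 genes (adjusted p = 0.00357).

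Of the 4 repair genes, 1 rose and 0 fell on the relative scale, and as deposited 4 were higher, where 30.2% of all genes rose and 77.2% were higher as deposited. DDB2, which recognises ultraviolet damage and carries an exact p53 element at its start, had intensities of 353 and 376 with shBORIS and 216 and 212 with shLUC. The groups did not overlap, and the log2 difference was 0.73 as deposited (adjusted p = 1.65e-10) and 0.25 relative to the median gene (SE 0.06; adjusted p = 0.00637). The relative rise passed under all 13 alternatives, from 0.18 to 0.36, while its other probe set read 0.13 (adjusted p = 0.187). XPC, its partner in nucleotide excision repair, read 265 and 297 against 224 and 214, a relative difference of -0.14 (adjusted p = 0.0829). POLH, the polymerase that copies past ultraviolet lesions, read 150 and 156 against 98.2 and 88.0, a relative difference of 0.15 (adjusted p = 0.0963). RRM2B, the ribonucleotide reductase subunit that supplies nucleotides outside S phase, read 181 and 183 against 144 and 142, a relative difference of -0.16 (adjusted p = 0.0784). XPC, POLH and RRM2B were higher by 0.34, 0.63 and 0.32 as deposited. Of the 3 genes with a p53 element in the window, MDM2 and DDB2 rose and AEN read -0.01 relative to the median gene, where 30.2% of all genes rose, and the call of MDM2 is the one lost in 3 of the 4 fits that leave out an array and turned to -0.04 by the mean of probe sets.

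All 3 metabolic and stress genes above the filter fell on the relative scale, as did 28.9% of all genes, and their median was -0.59 against -0.12 as deposited. SESN1, a sestrin that restrains the growth kinase mTORC1, had intensities of 119 and 111 with shBORIS and 166 and 133 with shLUC. The groups did not overlap. It fell by 0.33 as deposited (SE 0.11; adjusted p = 0.00343) and by 0.80 relative to the median gene (SE 0.09; adjusted p = 4.5e-05). The relative fall was 1.75-fold and passed in the 12 alternatives that kept the gene, whereas without shLUC replicate 1, the brighter of the controls, the deposited fall did not pass (log2 -0.18; adjusted p = 0.191). The other SESN1 probe set, also above the filter, did not pass as deposited, at -0.12 (adjusted p = 0.374). On the relative scale that probe set fell by 0.60 (adjusted p = 6.42e-05). GDF15, a secreted stress cytokine, read 122 and 124 against 139 and 131. It read -0.12 on the deposited scale (adjusted p = 0.302) and fell by 0.59 on the relative scale (SE 0.07; adjusted p = 7.8e-05), and the 3 of its 5 probe sets above the filter were all lower on that scale, at -0.59, -0.69 and -0.67. SAT1, which breaks down polyamines, read 115 and 112 against 117 and 102. These overlapped, with 0.05 as deposited (adjusted p = 0.672) and -0.43 relative to the median gene (SE 0.08; adjusted p = 0.00115). SESN3, a further sestrin, lay under the filter at 66.8 and 67.9 against 52.2 and 52.5, and SPATA18, which acts in mitochondrial quality control, at 22.1 and 28.4 against 23.8 and 16.7, near the spike-in medians.

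The members had 94 probe sets that named them alone, 59 of them above the filter, and 6 members had a single one. No member had probe sets above the filter called in both directions on the relative scale, although the values of MDM2, PPM1D, CCNG1, XPC and POLH had both signs. Many members could not disagree in this way. GADD45B, PLK2, FAS, SESN3 and SPATA18 had no probe set above the filter. RPS27L, GADD45A, GADD45G, PLK3, EDA2R, AEN, TP53I3, TP53INP1 and TRIAP1 had a single one above it. Over all cellular probe sets, dim ones included, 16.5% were higher and 46.1% lower relative to the median gene.

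**Figure D3:**
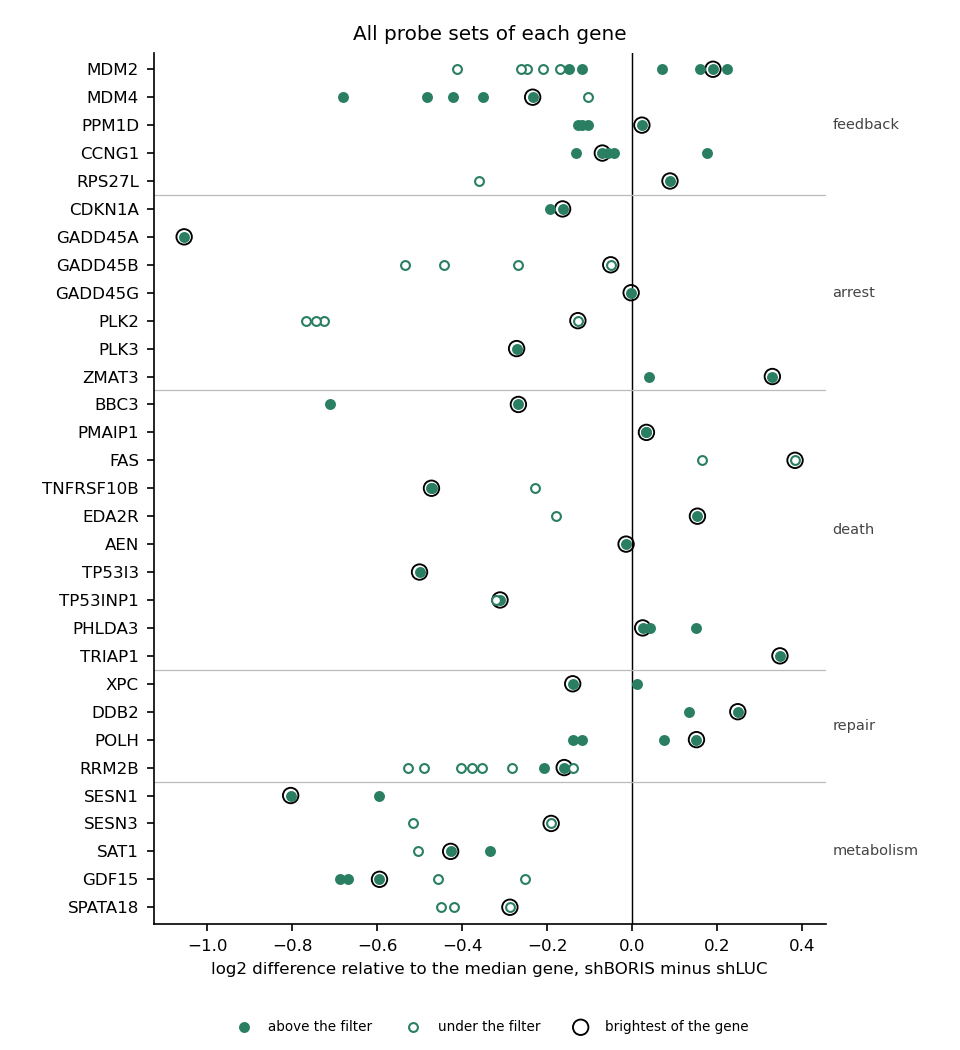
Log2 difference relative to the median gene for each of the 94 probe sets of the matched members, filled above the filter, open under it, with a ring around the brightest of each gene. The 5 filled MDM4 points and the 3 filled GDF15 points are all below 0.

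**Figure D4:**
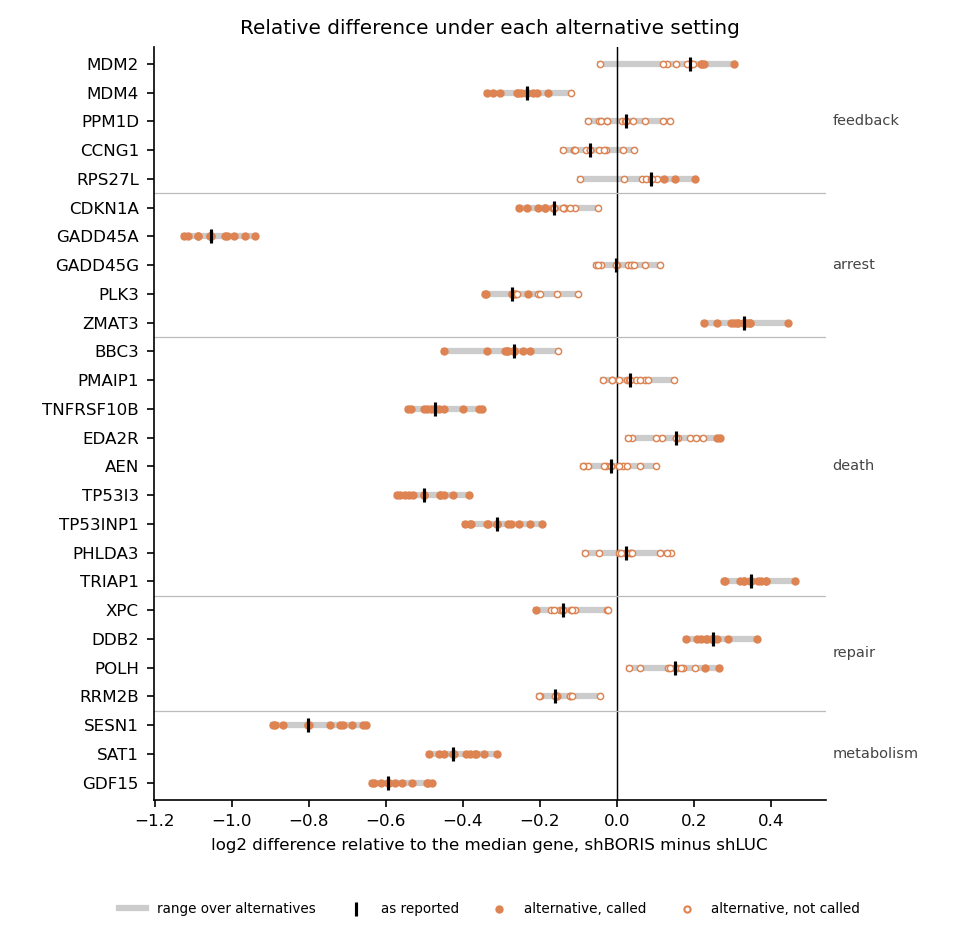
Relative log2 difference of each tested member as reported (black tick) and under the alternative settings (orange, filled where called), with grey bars over their range. GADD45A stays between -1.12 and -0.94 and is called in all 13, whereas MDM2 ranges from -0.04 to 0.31.

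Other genes of the pathway were set beside the members. Of 24 tested genes of the p53 family and its upstream regulators, 10 rose and 5 fell, with a relative median of 0.10, and as deposited 20 were higher and 0 lower. All genes gave 30.2% and 28.9% on the relative scale and 77.2% and 4.6% as deposited, and the same shares apply to the lists that follow. Those with the smallest p were TP53BP1, a chromatin reader at broken DNA, which rose by 0.93 from 79.5 and 78.6 to 223 and 250, the DNA-dependent kinase PRKDC, which rose by 0.70, the checkpoint kinase CHEK2, which rose by 0.61, and DYRK2, a kinase that marks p53 for apoptosis, which fell by 0.53 and read -0.05 as deposited (adjusted p = 0.66). Of 27 other p53 targets tested, 7 rose and 10 fell, with a median of -0.08, while 19 were higher and 1 lower as deposited. The repressor E2F7 rose by 0.75 and the helicase ASCC3 by 0.52. The lysosomal fucosidase FUCA1 fell by 0.83 and also by 0.35 as deposited, and the AMPK subunit PRKAB2 fell by 0.48 and read -0.00 as deposited (adjusted p = 0.995). BAX, the mitochondrial pore protein, named after its value was seen, fell by 0.16 (adjusted p = 0.0372) and was 0.32 higher as deposited.

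Cell cycle genes that p53 represses through p21 and the DREAM complex were mostly higher in shBORIS cells. Of 26 tested, 23 rose and 0 fell on the relative scale, with a median of 0.41, and 26 were higher as deposited. Under quantile normalization 22 rose and 1 fell. The transcription factors FOXM1 and MYBL2 rose by 1.13 and 0.68, the helicase subunit MCM5 by 1.04 and the cytokinesis motor KIF23 by 0.86. On the same arrays the p21 gene CDKN1A read -0.16 relative to the median gene and 0.31 as deposited, and its relative call was lost in 5 of 13 alternatives, with -0.05 (adjusted p = 0.481) when dim genes were kept. Whether the level of p21 plays a part in these values was not tested.

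GADD45A, TNFRSF10B and GDF15 are known to be induced by the stress factors ATF4 and CHOP as well as by p53, so the genes of that response were listed too. Of 11 ATF4 and CHOP factors and targets tested, 10 fell and 0 rose on the relative scale, with a median of -0.54, while 4 were lower and 2 higher as deposited and 10 fell under quantile normalization. DDIT3, which encodes CHOP, read 87.7 and 91.0 with shBORIS and 216 and 218 with shLUC, a log2 difference of -1.62 relative to the median gene and -1.14 as deposited. ATF3 fell by 1.00, the chaperone HSPA5 by 0.92 and the mTORC1 inhibitor DDIT4 by 0.79, and as deposited they fell by 0.53, 0.45 and 0.31. The gene of this list not called was SESN2, a sestrin that both ATF4 and p53 can induce, named after its value was seen, at -0.03 (adjusted p = 0.704). ATF4 itself, named after its value was seen, fell by 0.35 and read 0.13 as deposited (adjusted p = 0.199). PMAIP1, which ATF4 is also known to induce, read 0.03 relative to the median gene. The part of this response in the values of the members was not tested.

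**Figure D5:**
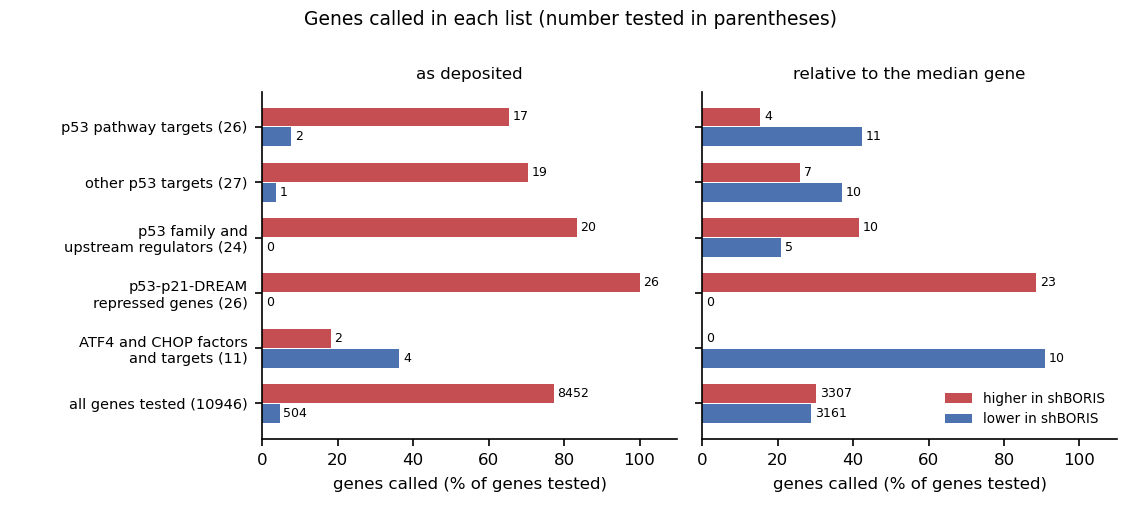
Share of the tested genes of each list called higher (red) or lower (blue) in shBORIS cells, as deposited on the left and relative to the median gene on the right, with the count beside each bar. The p53 pathway targets have 4 higher and 11 lower on the relative scale, the ATF4 and CHOP list 0 and 10, and the DREAM list 23 and 0.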

How the data were processed

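Total RNA from 4 samples of resistant Kelly cells was hybridised to Affymetrix PrimeView arrays after ERCC spike-in RNAs were added, per the labels' protocols. The authors deposited linear intensities of probe sets. Per the submitters' processing notes MAS5, affy and R 3.1.3 were used, in roles not stated, and the scaling of the arrays is not stated there.

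Of 49495 probe sets, 202 controls, 1333 with several symbols and 2682 without one were left out. Symbols of the other 45278 came from the platform annotation, updated through the Entrez identifier for 45208 of them (GRCh38.p14). Each of 18244 genes took the probe set whose mean was highest on log2(intensity + 16), and genes under the 40th percentile of that mean (intensity 61.4) were left out, leaving 10946. Fold changes on the log2(intensity + 16) scale understate those of dim genes. limma 3.58.1 in R 4.3.3 was fitted with the hairpin as the only term, a prior variance that follows intensity, and 2 residual degrees of freedom, on the deposited scale and with the median of the tested genes subtracted per array (relative to the median gene). P-values are limma's, 2-sided, adjusted by Benjamini-Hochberg over all genes tested, at 0.05; those of further probe sets come from the same model over all cellular probe sets. As deposited the prior took infinite degrees of freedom, so the size of very small p-values carries little information. The smallest p of an exact permutation test in this design is 0.333. The code was tested on simulated data.

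The members and lists were chosen with earlier results of these data known, and no set test was run. The genes named are all members, CTCFL, and up to 4 genes of each other list with the smallest relative p; others are marked. P-values relative to the median gene rest on the spread between a gene's duplicates, drawn toward that of genes of like intensity. Those as deposited rest on the pooled spread of genes of like intensity alone. With 2 arrays a group the precision is limited. Probe sets cannot tell near-identical genes apart.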

Additional observations from a re-analysis of the deposited data

How the results depend on the processing

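Relative to the median gene, 10 of the 15 member calls passed under every alternative that kept the gene: the rises of ZMAT3, TRIAP1 and DDB2 and the falls of GADD45A, TNFRSF10B, TP53I3, TP53INP1, SESN1, SAT1 and GDF15. Those of MDM4 and BBC3 failed only with no filter on dim genes, and those of MDM2, CDKN1A and PLK3 in several settings. MDM2 alone turned, to -0.043 with the mean of probe sets. The ERCC alternative could hardly fail on this scale. It divides each array by a constant, and centring on the array's median largely cancels that. With no filter, where the reference is the median of all 18244 genes, the relative counts were 8 members higher and 7 lower, and 5083 genes lower. With a filter at the 60th percentile, which tests fewer genes, 2164 genes were higher relative to the median gene, and as deposited 275 genes and 1 member were lower. Quantile normalization removes the general shift: in place of the deposited calls, 6 members were higher and 11 lower, and 2921 genes higher and 3105 lower; relative to its median gene 7 members were higher. Under it MDM4 read -0.35, PPM1D -0.056, CCNG1 -0.14, CDKN1A -0.29, BBC3 -0.31, PMAIP1 -0.045, TNFRSF10B -0.57, AEN -0.11, TP53INP1 -0.41, XPC -0.17, RRM2B -0.15, SAT1 -0.38 and PLK3 -0.13, each of the other sign than as deposited. Leaving out each array in turn gave 9 to 11 members lower and 3 to 4 higher relative to the median gene, and 14 to 18 higher and 1 to 2 lower as deposited, with 346 to 502 genes lower; 1 member was lower without shLUC replicate 1. Same-numbered arrays deviated together with a correlation of 0.098, so the numbers were not taken to pair them. With the replicate block, 15 members were higher and 2 lower as deposited, and 4 higher and 11 lower relative to the median gene; MDM4 and CDKN1A did not pass as deposited (adjusted p = 0.189 and 0.092). Intensities near the spike-in medians limit what can be said of FAS, GADD45B, PLK2 and SPATA18.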
